A study of Homo sapiens with 9 samples.

Results

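The genes described here are 10 cadherins, markers and transcription factors of the epithelial-mesenchymal transition (EMT). They are CDH1, EPCAM and GRHL2 on the epithelial side, CDH2 and VIM on the mesenchymal side, and the transcription factors SNAI1, SNAI2, ZEB1, ZEB2 and TWIST1. They were chosen by name, and all 10 were found among the 20030 genes of the deposited tables. CDH1 encodes E-cadherin, which holds neighbouring epithelial cells together at adherens junctions, and EPCAM encodes an epithelial adhesion molecule. CDH2 encodes N-cadherin and VIM encodes vimentin, the intermediate filament of mesenchymal cells. SNAI1 (Snail), SNAI2 (Slug), ZEB1 and ZEB2 are zinc finger proteins that bind E-box sequences, repress CDH1 and drive the transition, and TWIST1 is a basic helix-loop-helix factor with the same reputation. GRHL2 encodes a factor that maintains epithelial genes and opposes ZEB1. In liver cancer the transition is studied as a route to invasion and drug resistance.

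RNA was sequenced from the human hepatocellular carcinoma (HCC) cell line MHCC97L without drug treatment and from the MHCC97L-Src and MHCC97L-Oxa lines derived from it, in 3 libraries per line and 9 in all. MHCC97L-Src was selected with rising doses of saracatinib, an inhibitor of Src family kinases, until it resisted 4 µmol/L, and MHCC97L-Oxa was selected with the platinum drug oxaliplatin until it resisted 2 µmol/L. The comparisons asked how RNA levels in each resistant line differed from those in MHCC97L, and how the resistant lines differed from each other. The study describes its comparison of MHCC97L with MHCC97L-Src as made in independent experiments. The labels name 1 line per drug and do not tie the libraries to separate cultures. They give saracatinib as the treatment of MHCC97L-Src, oxaliplatin as that of MHCC97L-Oxa and none for MHCC97L. Whether drug was present at harvest is not given in the sources used here. The p-values measure the spread between these libraries. Drug selection, drug present at harvest and the history of 1 line cannot be told apart.

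The gene counts of a library summed to between 16970486 and 18209213, and 3 counts, or 0.165 to 0.177 CPM (counts scaled to a common library total), were taken as the floor of detection. Floors and counting intervals cover counting error only. MHCC97L replicate 1 stood apart. Its deviation from the mean of all libraries followed the GC content of genes with a Spearman rho of -0.784 across 11979 genes, against -0.256 and 0.309 in the other MHCC97L libraries, 0.189 to 0.701 in MHCC97L-Src and 0.174 to 0.315 in MHCC97L-Oxa. The log2 CPM of MHCC97L libraries correlated at 0.859 to 0.956, below the 0.969 to 0.987 of MHCC97L-Src and the 0.984 to 0.990 of MHCC97L-Oxa. Of 11 hepatocyte markers, ALB, AFP, APOB and TTR had 0 counts in all 9 libraries, and the summed level without the keratins KRT8 and KRT18 was 0.283 to 2.14 CPM. The leukocyte markers PTPRC, CD3E and LYZ were also at 0 counts in every library, while CD68 and CD14 had counts in each.

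The start regions of CDH2, VIM and ZEB1 are shown because these genes span the range of levels described below, from VIM among the most abundant transcripts to ZEB1 near the floor. Of the 10 genes, 4 had a promoter in the RefSeq table used here (CDH2, VIM, ZEB1 and ZEB2). Each sequence covers the 250 bases before the transcription start nearest the GENCODE gene start, on GRCh38.p14, 5′ to 3′ on the gene's strand. Capitals mark matches on either strand to CACCTG, the form of the E-box that ZEB and SNAI proteins bind. They also mark the CCAAT box by its own letters and the GC box as GGGCGG, and no match overlapped another.
CDH2, chr18:28177131-28177380, - strand: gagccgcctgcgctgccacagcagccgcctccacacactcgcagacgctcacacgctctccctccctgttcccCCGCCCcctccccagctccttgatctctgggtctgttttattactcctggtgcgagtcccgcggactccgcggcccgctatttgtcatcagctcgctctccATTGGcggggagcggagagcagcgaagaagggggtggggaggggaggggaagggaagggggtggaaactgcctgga
VIM, chr10:17227991-17228240, + strand: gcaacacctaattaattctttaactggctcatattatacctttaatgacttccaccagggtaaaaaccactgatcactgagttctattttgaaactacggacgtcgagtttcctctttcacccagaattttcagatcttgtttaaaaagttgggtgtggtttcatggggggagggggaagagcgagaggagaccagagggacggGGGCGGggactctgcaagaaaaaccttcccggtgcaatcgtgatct
ZEB1, chr10:31318167-31318416, + strand: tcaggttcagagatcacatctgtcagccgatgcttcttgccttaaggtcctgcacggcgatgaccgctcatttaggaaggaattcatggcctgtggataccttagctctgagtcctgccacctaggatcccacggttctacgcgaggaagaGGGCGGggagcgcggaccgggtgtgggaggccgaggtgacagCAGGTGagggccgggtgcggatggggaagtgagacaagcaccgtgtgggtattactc

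The ZEB1 sequence held 1 E-box, 57 bases before the start, and 1 GC box. The CDH2 sequence held 1 CCAAT box and 1 GC box, and the VIM sequence held 1 GC box. Neither CDH2 nor VIM held the E-box in this window, and the ZEB2 window (chr2:144520120-144520369, - strand) held none of the motifs. The only ZEB2 start available lies 4464 bases from the GENCODE gene start, inside the gene. For CDH2, VIM and ZEB1 that distance is 316, 18 and 78 bases. The ZEB2 window therefore does not describe the bases before its GENCODE start. Among 35116 RefSeq promoters, 17.5% held the E-box, 32.0% the CCAAT box and 42.6% the GC box in the same 250 bases. These are matches of letters and not measured binding. On GRCh38, GENCODE release 29 places CDH1 on chromosome 16 (68737225 to 68835548, + strand) and CDH2 on chromosome 18 (27950966 to 28177446, - strand). VIM (chromosome 10, 17228259 to 17237593), ZEB1 (chromosome 10, 31318495 to 31529814) and ZEB2 (chromosome 2, 144364364 to 144524583) each overlap an antisense gene, VIM-AS1, ZEB1-AS1 and ZEB2-AS1. The antisense genes are no rows of the tables and the strand setting of the counting is not given in the sources used here, so sense and antisense reads cannot be told apart for these genes.

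Compared per transcript length, the 10 genes lay at widely different levels. The mean FPKM (fragments scaled to transcript length and library size) over the 9 libraries was 446 for VIM, 47.3 for SNAI1, 32.5 for TWIST1, 2.72 for CDH2, 2.51 for SNAI2, 0.326 for ZEB2, 0.155 for ZEB1, 0.0575 for CDH1 and 0.0162 for EPCAM, and GRHL2 was listed at 0 throughout. VIM ranked between 95th and 253rd of all genes in every library. Its lowest library, at 258 FPKM, lay above the highest SNAI1 library, at 54.3 FPKM. The ranges of SNAI1 (31.3 to 54.3 FPKM) and TWIST1 (15.7 to 42.9 FPKM) overlapped, as did those of CDH2 (1.19 to 8.80 FPKM) and SNAI2 (0.392 to 7.01 FPKM), and those of ZEB2 (0.0771 to 1.43 FPKM) and ZEB1 (0.0394 to 0.464 FPKM). High VIM stood beside high KRT8 and KRT18, the keratins of simple epithelia, with mean FPKM of 1288 and 803 (MHCC97L), 1144 and 1144 (MHCC97L-Src) and 653 and 643 (MHCC97L-Oxa). In bulk RNA, fewer cells of a type and less RNA per cell cannot be told apart.

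**Figure D1:**
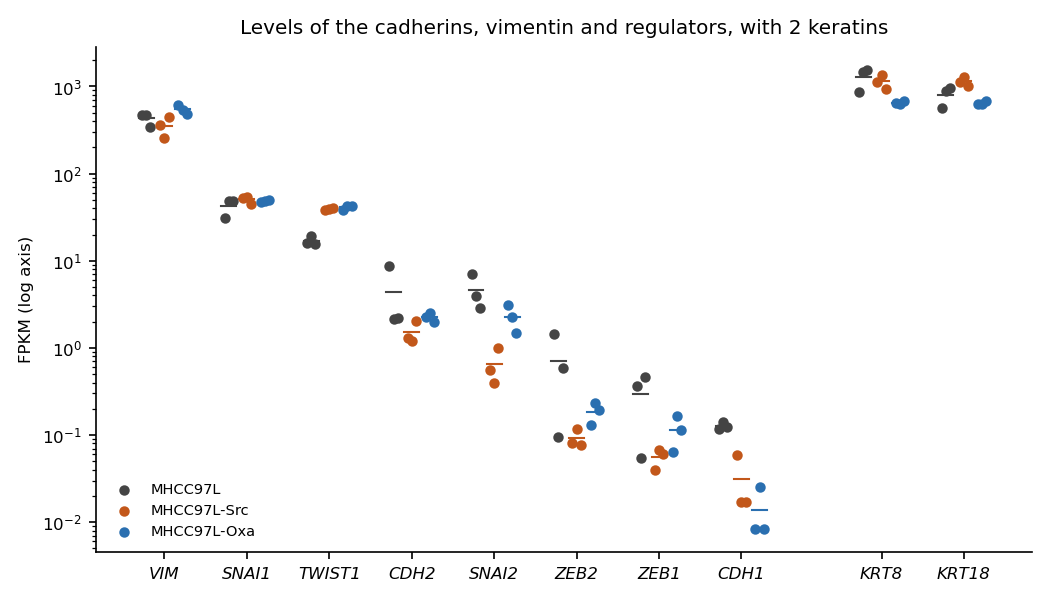
FPKM on a log axis of the 8 genes detected above the floor, with KRT8 and KRT18 on the right. Points are libraries (3 per line), lines are means, and colours are cell lines. VIM lay between 258 and 621 FPKM, while all CDH1 libraries lay below 0.143 FPKM.

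Between MHCC97L-Src and MHCC97L, 8 of the 10 genes passed the filter on low counts, and 1 of them, SNAI2, fell past an adjusted p of 0.05 in edgeR's quasi-likelihood test, beside 2.13% of the 12037 genes tested. At an unadjusted p under 0.05, 1 was higher (TWIST1) and 5 were lower (CDH1, CDH2, ZEB1, ZEB2 and SNAI2), beside 9.4% and 20.1% of all genes tested. CDH1 passed the filter only through MHCC97L, where it is high, so it had to differ, and its place in this and the following counts against MHCC97L is no support. ZEB1, with 8, 14 and 12 counts in MHCC97L-Src, would not have passed through MHCC97L-Src alone. It was kept with the help of MHCC97L, where its mean was higher, so its place in this count is weak support at most. The lines did not overlap for 5 of the 8 genes, against 30.5% of all genes. The median log2 fold change of the 8 was -1.78, and that of all genes tested was -0.16, both without correction for GC content. With the offsets for GC content and gene length described below, all 8 estimates were smaller in size. Among them were CDH2 (-0.61), ZEB1 (-0.95), ZEB2 (-1.09) and SNAI2 (-1.91), beside a median of -0.05 for all genes.

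Between MHCC97L-Oxa and MHCC97L, 0 of 8 tested genes were called by edgeR, beside 0.953% of 12064 genes (0.771% higher and 0.182% lower). At an unadjusted p under 0.05, 1 was higher (TWIST1) and 3 were lower (CDH1, ZEB2 and SNAI2), beside 8.84% and 13.6% of all genes tested, and DESeq2 called 1, TWIST1. The lines did not overlap for 3 of the 8 genes, against 29.5% of all genes. The median log2 fold change was -0.93 for the 8 and -0.19 for all genes, again without the offsets. With them, the estimates for CDH2 (-0.13), ZEB1 (-0.39), ZEB2 (-0.51) and SNAI2 (-0.44) were smaller in size. Those of CDH1 and TWIST1 were also smaller, while VIM (0.53) and SNAI1 (-0.21) were larger. Both comparisons rest on the same 3 MHCC97L libraries.

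Between MHCC97L-Src and MHCC97L-Oxa, 7 genes were tested and 1, SNAI2, was called by edgeR as lower in MHCC97L-Src, beside 4.64% of 11994 genes. At an unadjusted p under 0.05, 4 were lower in MHCC97L-Src (CDH2, VIM, ZEB2 and SNAI2) and 0 were higher, beside 9.76% and 9.75% of all genes. The same 4 did not overlap between the lines, against 27.6% of all genes. With 3 libraries against 3, the smallest two-sided p of an exact permutation test is 0.1, which each non-overlapping gene reached, so the calls rest on the edgeR fit.

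The number of calls moved strongly with single MHCC97L libraries. Against MHCC97L, 6 of the genes were called in MHCC97L-Src without MHCC97L replicate 2 (3419 of all genes called), 2 without replicate 1 (672 of all genes called), and 0 without replicate 3 (22 of all genes called). In MHCC97L-Oxa the corresponding counts were 4, 2 and 0 (2705, 2251 and 2 of all genes called). Leaving out a library of MHCC97L-Src or MHCC97L-Oxa left 0 of the genes called in these comparisons, with 27 to 69 of all genes called in MHCC97L-Src and 2 in MHCC97L-Oxa. Between the resistant lines, 0 were called without MHCC97L-Src replicate 1 or without MHCC97L-Oxa replicate 1 or 2, and 3 without MHCC97L-Src replicate 3 (CDH2, VIM and SNAI2). With offsets for GC content and gene length in the fit, 3 genes were called in MHCC97L-Src (CDH1, SNAI2 and TWIST1), 2 in MHCC97L-Oxa (CDH1 and TWIST1) and 2 between the resistant lines (VIM and SNAI2), beside 10.6%, 12.9% and 9.64% of all genes. With the offsets the median log2 fold change of all genes was -0.05 rather than -0.16 (MHCC97L-Src) and -0.08 rather than -0.19 (MHCC97L-Oxa). Of the genes called in MHCC97L-Src, 67.2% were higher without the offsets and 51.8% with them, and in MHCC97L-Oxa 80.9% and 50.2%.

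The epithelial genes had few or no counts in any line. The 3 MHCC97L libraries held 19, 19 and 15 CDH1 counts, those of MHCC97L-Src 5, 2 and 4, and those of MHCC97L-Oxa 3, 4 and 2. All 3 MHCC97L libraries lay above all 6 libraries of the resistant lines, which were at or close to the floor. The mean level of MHCC97L was 0.994 ± 0.138 CPM (SD, n = 3), that of MHCC97L-Src 0.211 ± 0.0865 and that of MHCC97L-Oxa 0.167 ± 0.0554. Summed over libraries, MHCC97L had 4.68 times the CDH1 counts of MHCC97L-Src (95% counting interval 2.42 to 9.94) and 5.95 times those of MHCC97L-Oxa (2.91 to 13.7). In MHCC97L-Src the log2 fold change of CDH1 was -2.13 ± 0.51 (SE, edgeR adjusted p = 0.0769), and in MHCC97L-Oxa it was -2.51 ± 0.47 (edgeR adjusted p = 0.0580), neither past the threshold. CDH1 entered these tests only through its MHCC97L libraries, and a gene kept in that way had to differ. With offsets for GC content and gene length in the edgeR fit, the adjusted p became 0.0295 (MHCC97L-Src) and 0.0151 (MHCC97L-Oxa). MHCC97L-Src and MHCC97L-Oxa, with 11 and 9 CDH1 counts in all, could not be told apart at this depth (ratio of MHCC97L-Oxa to MHCC97L-Src 0.788, counting interval 0.289 to 2.09).

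EPCAM reached 1, 0 and 1 counts in the MHCC97L libraries and 1, 1 and 2 in those of MHCC97L-Src, with 0 in each MHCC97L-Oxa library. GRHL2 had 0 counts in all 9 libraries, which allows up to 0.177 CPM in the shallowest. Both genes lay at or under the floor in every library, so no fold change was computed.

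On the mesenchymal side, MHCC97L libraries held 1077, 281 and 268 CDH2 counts, MHCC97L-Src libraries 175, 134 and 243, and MHCC97L-Oxa libraries 301, 336 and 258. MHCC97L replicate 1 was 3.97 times the mean of the other MHCC97L libraries in CPM. The other MHCC97L libraries lay within 14.9 to 15.8 CPM, above the 7.90 to 13.8 CPM of MHCC97L-Src and close to the 14.5 to 18.8 CPM of MHCC97L-Oxa. The log2 fold change of CDH2 in MHCC97L-Src was -1.42 ± 0.55 with all libraries (edgeR adjusted p = 0.139), -0.61 with GC and length offsets and -0.49 without MHCC97L replicate 1. In MHCC97L-Oxa it was -0.82 ± 0.52 (edgeR adjusted p = 0.340), -0.13 with the offsets and 0.16 without MHCC97L replicate 1. MHCC97L-Src was below MHCC97L-Oxa by a log2 difference of -0.60 ± 0.21 (edgeR adjusted p = 0.148), which does not use MHCC97L.

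VIM was abundant in all lines. Counts were 22360, 22882 and 16729 for MHCC97L, 17270, 11996 and 21068 for MHCC97L-Src, and 29844, 25861 and 23099 for MHCC97L-Oxa. All MHCC97L-Oxa libraries (1300 to 1639 CPM) lay above all others, and MHCC97L (930 to 1289 CPM) overlapped MHCC97L-Src (707 to 1198 CPM). VIM differed from MHCC97L in MHCC97L-Oxa by a log2 fold change of 0.35 ± 0.22 (95% interval -0.17 to 0.86, edgeR adjusted p = 0.341), and in MHCC97L-Src it was -0.21 ± 0.26 (-0.79 to 0.38, edgeR adjusted p = 0.598). Between the resistant lines the difference was -0.55 ± 0.16 (edgeR adjusted p = 0.0798). With GC and length offsets that difference was -0.48 (adjusted p = 0.00234), and VIM in MHCC97L-Src against MHCC97L turned to 0.06.

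**Figure D2:**
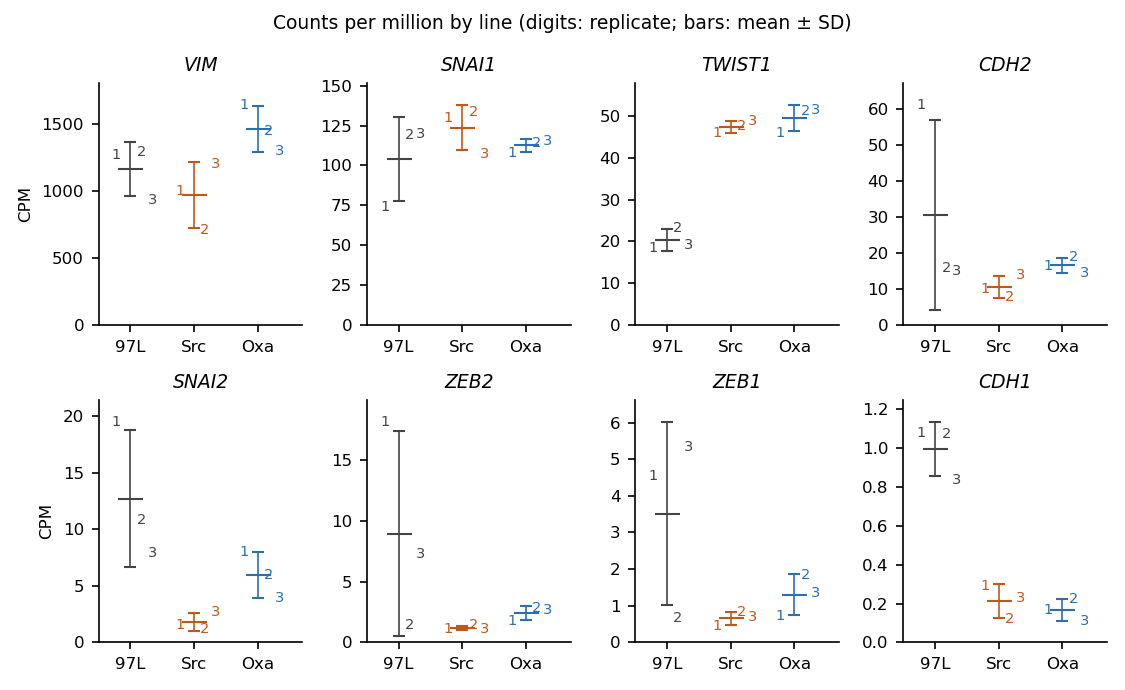
CPM on linear axes starting at 0 in MHCC97L (97L), MHCC97L-Src (Src) and MHCC97L-Oxa (Oxa). Digits mark replicates, and bars give the mean ± SD of 3 libraries. The TWIST1 values of both resistant lines lay above those of MHCC97L, SNAI2 was lowest in MHCC97L-Src, and the MHCC97L libraries spread widely for CDH2, ZEB1 and ZEB2.

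Among the transcription factors, SNAI2 was the gene that passed the test. It reached 344, 192 and 142 counts in the MHCC97L libraries, 27, 20 and 47 in those of MHCC97L-Src, and 145, 107 and 70 in those of MHCC97L-Oxa. Every MHCC97L-Src library lay below every other library, whereas the MHCC97L and MHCC97L-Oxa libraries overlapped by 1 pair, 7.90 CPM in MHCC97L replicate 3 and 7.96 CPM in MHCC97L-Oxa replicate 1. SNAI2 fell in MHCC97L-Src against MHCC97L, from 12.7 ± 6.03 to 1.80 ± 0.777 CPM (SD, n = 3). This is a log2 fold change of -2.74 ± 0.52 (95% interval -3.92 to -1.57, edgeR adjusted p = 0.0368), a 6.69-fold lower level. It was -1.91 with GC and length offsets (adjusted p = 0.0266). Over all alternatives the adjusted p ran from 6.47e-06 to 0.161. The call was lost without MHCC97L replicate 3 (adjusted p = 0.0858) and without MHCC97L-Src replicate 1, 2 or 3 (0.161, 0.159 and 0.113 in edgeR). It was also lost by limma-trend on log2(FPKM + 1) (-1.72, adjusted p = 0.0559) and with the offsets and the replicate block together (-1.83, adjusted p = 0.102), while the log2 fold change lay between -3.07 and -2.34 with any 1 library left out.

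SNAI2 was also lower in MHCC97L-Src than in MHCC97L-Oxa (5.96 ± 2.01 CPM), by a log2 difference of -1.68 ± 0.36 (95% interval -2.47 to -0.89, edgeR adjusted p = 0.0266), a 3.20-fold lower level. This comparison uses none of the MHCC97L libraries. The adjusted p was 0.106 without MHCC97L-Src replicate 1, 0.101 without MHCC97L-Oxa replicate 1 and 0.117 without MHCC97L-Oxa replicate 2, with log2 differences of -2.02 to -1.40 whichever library was left out. All 9 libraries in one edgeR fit gave an adjusted p of 0.207, the offsets with the replicate block 0.104, and limma-trend 0.0514 and 0.0513 on log2(FPKM + 1) and log2(FPKM + 0.1). In MHCC97L-Oxa against MHCC97L the log2 fold change of SNAI2 was -1.05 ± 0.46 (edgeR adjusted p = 0.222).

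ZEB1 and ZEB2 were low, and their MHCC97L libraries lay far apart. For ZEB1 the MHCC97L libraries held 80, 12 and 96 counts, those of MHCC97L-Src 8, 14 and 12, and those of MHCC97L-Oxa 13, 33 and 24. For ZEB2 they held 320, 26 and 131, then 19, 24 and 20, and 32, 51 and 48 in the same order of lines. MHCC97L replicate 2 was the low library for both, at 0.676 CPM for ZEB1 and 1.47 CPM for ZEB2, within or near the range of the resistant lines. ZEB1 in replicate 3 was 7.90 times its CPM in replicate 2. Against MHCC97L, the change in MHCC97L-Src on the log2 scale was -2.31 ± 0.74 for ZEB1 (edgeR adjusted p = 0.112) and -2.74 ± 0.79 for ZEB2 (edgeR adjusted p = 0.102). In MHCC97L-Oxa it was -1.40 ± 0.72 for ZEB1 (edgeR adjusted p = 0.263) and -1.81 ± 0.76 for ZEB2 (edgeR adjusted p = 0.216). Their transcripts have the lowest GC content of the 10 genes, 38.5% and 39.1%, and with GC and length offsets the values in MHCC97L-Src were -0.95 and -1.09. Between the resistant lines the differences were -0.92 ± 0.46 for ZEB1 and -0.94 ± 0.33 for ZEB2 (edgeR adjusted p = 0.297 and 0.152).

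SNAI1 was the most abundant of the factors per length. Counts were 1304, 2112 and 2148 for MHCC97L, 2254, 2266 and 1887 for MHCC97L-Src, and 1966, 2047 and 2053 for MHCC97L-Oxa. MHCC97L replicate 1, at 73.9 CPM, was below all other libraries, which lay between 107 and 134 CPM. SNAI1 differed from MHCC97L by a log2 fold change of 0.31 ± 0.29 (95% interval -0.35 to 0.97, edgeR adjusted p = 0.479) in MHCC97L-Src and of 0.11 ± 0.26 (-0.49 to 0.71, edgeR adjusted p = 0.807) in MHCC97L-Oxa. With GC and length offsets the signs turned, to -0.14 and -0.21. Its transcript has the highest GC content of the 10, 58.2%. MHCC97L-Src and MHCC97L-Oxa differed by 0.20 ± 0.13 (-0.10 to 0.50, edgeR adjusted p = 0.457).

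TWIST1 reached 326, 414 and 345 counts in the MHCC97L libraries, 795, 807 and 857 in those of MHCC97L-Src, and 836, 918 and 913 in those of MHCC97L-Oxa. All 6 libraries of the resistant lines lay above all MHCC97L libraries, with means of 20.3 ± 2.62 CPM for MHCC97L, 47.4 ± 1.44 for MHCC97L-Src and 49.5 ± 3.11 for MHCC97L-Oxa (SD, n = 3). TWIST1 differed from MHCC97L by a log2 fold change of 1.29 ± 0.29 (95% interval 0.64 to 1.94, edgeR adjusted p = 0.0614) in MHCC97L-Src and of 1.29 ± 0.26 (0.70 to 1.88, edgeR adjusted p = 0.0649) in MHCC97L-Oxa, neither past the threshold. With GC and length offsets it was 0.81 (adjusted p = 0.0354) and 0.93 (adjusted p = 0.0183). Without MHCC97L replicate 1 it was 1.21 (edgeR adjusted p = 0.0162) and 1.27 (edgeR adjusted p = 0.00381). Between MHCC97L-Src and MHCC97L-Oxa the TWIST1 difference was -0.01, with a 95% interval of -0.29 to 0.28.

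**Figure D3:**
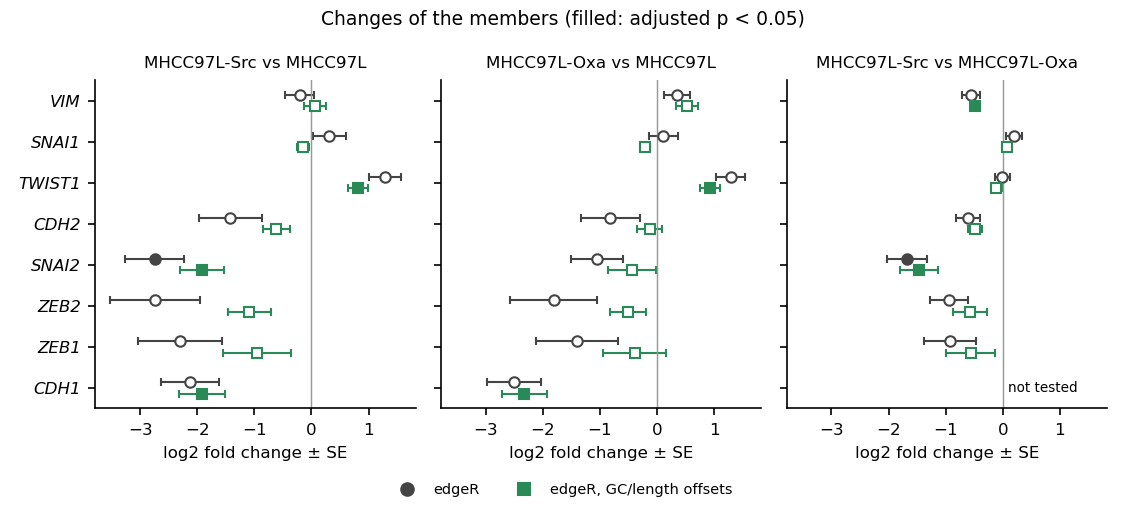
Log2 fold change ± SE of the tested genes in the 3 comparisons, from edgeR (circles) and from edgeR with offsets for GC content and gene length (squares). Against MHCC97L 8 genes were tested, and between the resistant lines 7, without CDH1. Filled symbols have an adjusted p under 0.05. SNAI2 in MHCC97L-Src was filled in both fits against MHCC97L and against MHCC97L-Oxa, and it was open in MHCC97L-Oxa against MHCC97L. The estimates for ZEB1, ZEB2 and CDH2 lay closer to 0 with the offsets.

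The wider pathway was described by lists of genes written from general knowledge with earlier results of these data known. Among 13 catenins and other partners at adherens junctions, 9 were tested and 1 rose in MHCC97L-Src by edgeR. There 1 was higher and 2 were lower at an unadjusted p under 0.05, and DESeq2 called 1 higher and 0 lower. The median log2 fold change of the 9 was -0.74, beside -0.16 for all genes, both without the offsets. The counts of list genes at an unadjusted p under 0.05, here and in the lists that follow, stand beside 9.4% of all genes higher and 20.1% lower in MHCC97L-Src, 8.84% and 13.6% in MHCC97L-Oxa, and 9.75% and 9.76% between the resistant lines. Among all genes, adjusted calls for MHCC97L-Src against MHCC97L were 172 higher and 84 lower by edgeR. DESeq2 gave 723 and 1391 there, and the GC and length offsets 658 and 612. For MHCC97L-Oxa against MHCC97L the same tests gave 93 and 22, 571 and 322, then 782 and 776. Between the resistant lines these tests gave 254 and 302, 392 and 447, then 540 and 616. JUP, which encodes plakoglobin (gamma-catenin) of adherens junctions and desmosomes, went from 5596, 8495 and 8904 counts to 23191, 24598 and 22943 in MHCC97L-Src. Its log2 fold change was 1.73 (edgeR adjusted p = 0.0225), and it was also higher in MHCC97L-Src than in MHCC97L-Oxa (log2 difference 0.89, edgeR adjusted p = 0.00180). In MHCC97L-Oxa against MHCC97L edgeR called 0 of 9, with 1 higher and 1 lower at an unadjusted p under 0.05, and DESeq2 called 1. The higher gene was JUP, with 13434, 14434 and 13358 counts in MHCC97L-Oxa. Its log2 fold change there was 0.83 (edgeR adjusted p = 0.167, or 0.00866 with GC and length offsets). The beta-catenin gene CTNNB1 and the alpha-catenin gene CTNNA1, named here although they passed no test, had 3985 and 11549 counts in MHCC97L replicate 1, against 1019 to 1523 and 3702 to 3928 in the other MHCC97L libraries.

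Of 21 other cadherins, 11 were at or under the floor in all libraries. CDH5, the VE-cadherin of endothelial junctions, reached 17, 28 and 22 counts in the MHCC97L libraries, 188, 196 and 236 in those of MHCC97L-Src, and 8, 12 and 7 in those of MHCC97L-Oxa. It rose in MHCC97L-Src against MHCC97L (log2 fold change 3.30, edgeR adjusted p = 0.0139), 1 of 6 tested in that list. Its log2 difference from MHCC97L-Oxa was 4.61. In that comparison CDH5 passed the filter only through MHCC97L-Src, where it is high, so this difference is no support. The summed level of 5 endothelial markers that include CDH5 was 11.9 to 15.6 CPM in MHCC97L-Src against 1.43 to 2.65 CPM in the other lines. That sum is mostly CDH5 itself, at 11.9 ± 1.33 CPM in MHCC97L-Src (SD, n = 3), and PECAM1, the other tested marker, differed by 0.43 (edgeR adjusted p = 0.578). CDH13, a cadherin anchored to the membrane by lipid, was lower in MHCC97L-Src than in MHCC97L-Oxa (log2 difference -1.65, edgeR adjusted p = 0.00725). In MHCC97L-Src against MHCC97L, 1 of the list was higher and 1 lower at an unadjusted p under 0.05. The lower gene was CDH13 (-1.99, edgeR adjusted p = 0.1045, or -0.88 with GC and length offsets). DESeq2 called 1 higher and 1 lower there. In MHCC97L-Oxa against MHCC97L edgeR called 0 of 5, 1 was lower at an unadjusted p under 0.05, and DESeq2 called 0. The lower gene was CDH5, which passed the filter there only through MHCC97L, so it is no support either. CDH24 had the highest level of the list, with 9.38 FPKM on average.

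Among 24 epithelial junction genes, 15 were tested. In MHCC97L-Src edgeR called 2 higher and 0 lower, with 4 and 2 at an unadjusted p under 0.05, DESeq2 called 4 and 2, and edgeR with GC and length offsets called 3 and 1. In MHCC97L-Oxa edgeR called 0, with 4 higher and 2 lower at an unadjusted p under 0.05, and DESeq2 and the offsets each called 3 higher and 1 lower. CLDN4, a claudin of tight junctions, reached 29, 48 and 29 counts in the MHCC97L libraries, 435, 490 and 451 in those of MHCC97L-Src, and 88, 113 and 81 in those of MHCC97L-Oxa. Its log2 fold change in MHCC97L-Src was 3.80 (edgeR adjusted p = 0.00768), and it was 2.40 above MHCC97L-Oxa. TJP3, the scaffold ZO-3, rose by 2.52 (edgeR adjusted p = 0.0481). LLGL2, a polarity gene, was higher in MHCC97L-Src than in MHCC97L-Oxa by 0.63 (edgeR adjusted p = 0.0403). The median log2 fold change of the 15 was -0.21 in MHCC97L-Src and -0.51 in MHCC97L-Oxa, beside -0.16 and -0.19 for all genes. PKP3, a plakophilin of desmosomes, had the highest level of the list, and its log2 fold changes were 0.21 in MHCC97L-Src and -0.07 in MHCC97L-Oxa, not past the threshold.

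Of 9 further epithelial regulators, 3 (MHCC97L-Src) and 4 (MHCC97L-Oxa) passed the filter, and edgeR called 0 against MHCC97L in either line. At an unadjusted p under 0.05, 1 was higher and 2 were lower in MHCC97L-Src, and 0 passed in MHCC97L-Oxa, while DESeq2 called 1 higher in MHCC97L-Src and 0 in MHCC97L-Oxa. Between the resistant lines, ELF3, an epithelial ETS factor, was higher in MHCC97L-Src (log2 difference 0.97) and KLF4, a zinc finger factor of epithelia, was lower (-0.92, edgeR adjusted p = 0.00879 and 0.0213).

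Among 26 mesenchymal genes, 21 were tested in MHCC97L-Src. EdgeR called 0 higher and 2 lower, with 5 and 8 at an unadjusted p under 0.05, DESeq2 called 2 and 8, and the offsets 2 and 6. TAGLN (transgelin, an actin-binding protein of smooth muscle) fell from 645, 1047 and 1280 counts to 52, 64 and 77, a log2 fold change of -3.85 (edgeR adjusted p = 0.00611). FN1, which encodes fibronectin, fell by 1.19 on the log2 scale (edgeR adjusted p = 0.0364), but by only 0.33 with GC and length offsets (adjusted p = 0.574). In MHCC97L-Oxa, 23 were tested. EdgeR called 1 higher and 1 lower, with 8 and 1 at an unadjusted p under 0.05. DESeq2 called 6 and 1, and the offsets 6 and 2. FN1 rose from 8991, 5894 and 6152 counts to 15711, 18094 and 14849 (log2 fold change 1.22, edgeR adjusted p = 0.0428), and TAGLN fell by 3.10 (edgeR adjusted p = 0.0171).

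Directly between the resistant lines, 11 of 21 tested mesenchymal genes were lower in MHCC97L-Src and 1, SPARC, was higher by 0.41 (edgeR adjusted p = 0.0454), beside 2.52% and 2.12% of all genes. The median log2 difference of the 21 was -0.78, against -0.02 for all genes. The log2 difference was -2.41 for FN1, with 2976, 2629 and 2872 FN1 counts in MHCC97L-Src. It was -1.89 for DCN (decorin), -1.69 for COL5A1 (a chain of type V collagen) and -1.60 for AXL (a receptor tyrosine kinase). For these 4 genes the edgeR adjusted p was at most 0.00294. S100A4 had the highest level of the list and differed by 0.10 (edgeR adjusted p = 0.757). The summed level of 8 fibroblast markers, 5 of which were tested between these lines, was 400 to 439 CPM in MHCC97L-Src, 543 to 569 CPM in MHCC97L-Oxa and 610 to 749 CPM in MHCC97L. All 8 fibroblast markers are also members of the mesenchymal list, so their sum is no separate measure, and the part of other cells in the difference was not tested.

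Of 20 further transcription factors linked to the transition and their ID partners, 14 were tested in MHCC97L-Src. EdgeR called 0 higher and 3 lower, with 1 and 5 at an unadjusted p under 0.05, DESeq2 called 1 and 4, and the offsets 1 and 3. The 3 that fell in edgeR were ID1, ID2 and ID3, which bind basic helix-loop-helix proteins and keep them from DNA. ID2 fell from 920, 850 and 480 counts to 27, 17 and 51 (log2 fold change -4.48, edgeR adjusted p = 0.00693). ID3, the highest of the list by FPKM, fell by 2.60 and ID1 by 2.28 (edgeR adjusted p = 0.0113 and 0.0118). In MHCC97L-Oxa, 15 were tested. EdgeR called 1 higher and 0 lower, with 2 and 3 at an unadjusted p under 0.05, DESeq2 called 2 and 1, and the offsets 2 and 2. FOXC2, a forkhead factor, went from 115, 186 and 177 counts to 753, 825 and 667 (log2 fold change 2.22, edgeR adjusted p = 0.0309). ID1, ID2, ID3 and FOXC2 were all lower in MHCC97L-Src than in MHCC97L-Oxa, with log2 differences of -2.35, -3.09, -1.80 and -1.52 and edgeR adjusted p of at most 0.000808.

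Among 8 co-repressors that work with SNAI and ZEB proteins, led in level by HDAC1, edgeR called 0 in any comparison, and at an unadjusted p under 0.05 1 was lower in MHCC97L-Src, 2 were lower in MHCC97L-Oxa and 0 passed between the resistant lines. Of 5 genes for the phosphorylation and turnover of SNAI1, led by GSK3B, edgeR also called 0, with 3 lower in MHCC97L-Src at an unadjusted p under 0.05, 0 in MHCC97L-Oxa and 1 between the resistant lines. DESeq2 called 1 of each of these lists, lower in MHCC97L-Src, and 0 in the other comparisons. The GSK3B counts were 2157, 756 and 764 in MHCC97L and 405 to 691 in MHCC97L-Src, and its log2 fold change there was -1.02, or 0.04 with GC and length offsets.

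**Figure D4:**
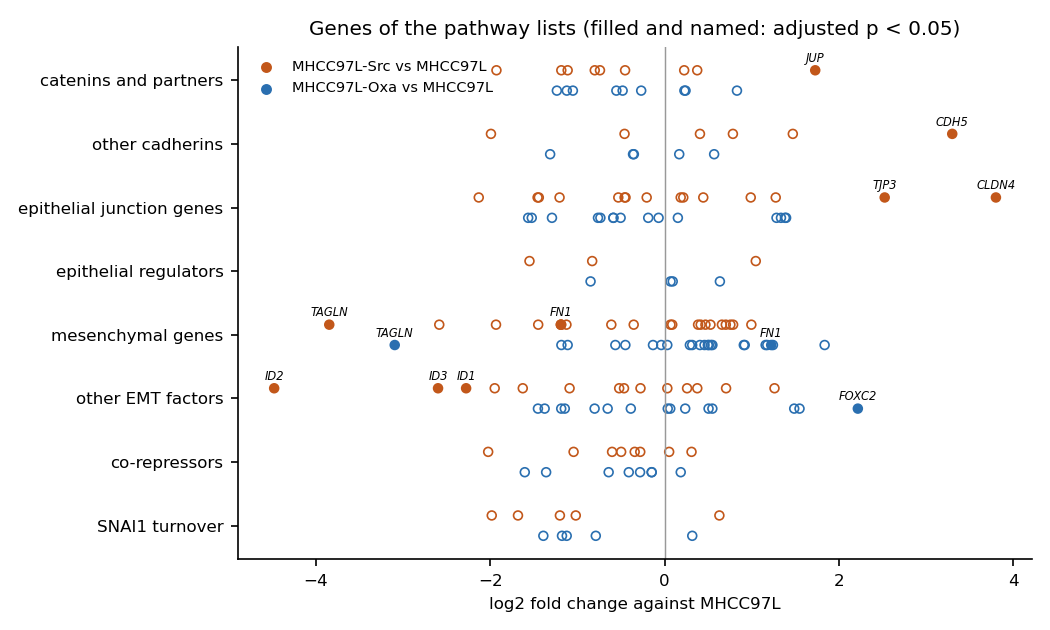
Log2 fold change against MHCC97L of every tested gene of the 8 pathway lists, in MHCC97L-Src and MHCC97L-Oxa, which share the MHCC97L libraries. Filled, named points have an edgeR adjusted p under 0.05. CLDN4, CDH5, TJP3 and JUP rose in MHCC97L-Src, and ID2, TAGLN, ID3, ID1 and FN1 fell.

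Most of these calls against MHCC97L depended on single libraries. Of the 9 list genes called in MHCC97L-Src, ID2 and TAGLN were called with any 1 of the 6 libraries left out. CLDN4 was lost without MHCC97L replicate 3 (edgeR adjusted p = 0.0568), and ID1 and ID3 without that library or MHCC97L-Src replicate 3 (at most 0.0619 and 0.0611). CDH5 was lost without MHCC97L replicate 3 or MHCC97L-Src replicate 2 or 3 (at most 0.0823). JUP, TJP3 and FN1 were lost without MHCC97L replicate 3 or any 1 MHCC97L-Src library (at most 0.1004, 0.157 and 0.192). In MHCC97L-Oxa, the calls of FN1, TAGLN and FOXC2 were lost without MHCC97L replicate 3 or any 1 MHCC97L-Oxa library (at most 0.316, 0.1598 and 0.231). Without MHCC97L replicate 1, 12 mesenchymal genes rose and 2 fell in MHCC97L-Oxa, and 1 rose and 7 fell in MHCC97L-Src, in fits that called 2251 and 672 of all genes. Between the resistant lines, the count of lower mesenchymal genes ran from 8 to 12 with 1 library left out. JUP, CLDN4, FN1, DCN, COL5A1, AXL, ID1, ID2, ID3 and FOXC2 were called in all 6 such fits. CDH5 was too, but it passed the filter only through MHCC97L-Src. CDH13 was lost without MHCC97L-Oxa replicate 2 (edgeR adjusted p = 0.0627), ELF3 without any 1 MHCC97L-Oxa library (at most 0.0622), and KLF4 without MHCC97L-Src replicate 1 or MHCC97L-Oxa replicate 1 or 2 (at most 0.127). TJP3, LLGL2 and SPARC were lost without MHCC97L-Src replicate 1 or any 1 MHCC97L-Oxa library (at most 0.0971, 0.209 and 0.297).

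The genes whose log2 CPM followed CDH1, CDH2 and VIM most closely over the 9 libraries were sought among 12231 genes. For CDH1 they were WWC1, NUP214 and APOL1 (Pearson r 0.970, 0.969 and 0.969), and for CDH2 they were DSTN, PTPRJ and LAMC1 (0.987, 0.986 and 0.985). For VIM they were TNFRSF10D, PCOLCE2 and EMC4 (0.986, 0.982 and 0.975). These are the highest values of many pairs over libraries that share their line and GC dependence, given as a description. Without MHCC97L replicate 1, r was 0.966 for WWC1, 0.946 for DSTN and 0.986 for TNFRSF10D.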

How the data were processed

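RNA-seq libraries of MHCC97L, MHCC97L-Src and MHCC97L-Oxa (n = 3 each) were made with a stranded poly(A) kit and read from both ends. The authors deposited raw counts per gene and FPKM values for 20030 genes. The submitters' processing notes name Trimmomatic 0.36, HISAT2 2.2.1.0 and GRCh38.p12. The counting program and its strand setting are not given in the sources used here. Groups followed the treatment named in each label.

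From the deposited counts, genes kept by filterByExpr (minimum count 10) were TMM normalized, and the 6 libraries of each comparison were tested by edgeR (quasi-likelihood), with Benjamini-Hochberg adjustment over all genes tested and a threshold of 0.05. SE was derived from the log2 fold change and edgeR's F statistic. CPM is counts over the library total. FPKM served to compare levels between genes and entered log2(FPKM + 1) and log2(FPKM + 0.1) fits. GC content and length came from GENCODE release 29 transcripts and entered as offsets from natural splines with 5 degrees of freedom. Log2 CPM for correlations used a prior count of 2. The main edgeR fit was tried on simulated counts without GC dependence. The offsets, DESeq2 and limma-trend were not tried in this way.

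The 10 genes, the lists, the alternatives and the offsets were chosen with earlier results of these data known. Named were the 10 genes, up to 4 called genes per list and comparison with the largest change, each list's highest gene by FPKM, and the 3 closest correlates of CDH1, CDH2 and VIM. CTNNB1 and CTNNA1 were added after their values were seen. Marker genes served to check cell identity, and some of them are also described under other observations. A mesenchymal gene and a hepatocyte marker of these lists are not reported here, and the counts leave them out. Alternatives were DESeq2, its size factors in edgeR, no filter, all 9 libraries in one fit, limma-trend on FPKM, the offsets, the replicate number as a block, and each library left out. Software comprised Python 3.11.15 with pandas 2.3.3, matplotlib 3.10.9 and SciPy 1.17.1, and R 4.3.3 with DESeq2 1.42.0, edgeR 4.0.16 and limma 3.58.1.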

Additional observations from a re-analysis of the deposited data

Results flagged for a closer look

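SNAI2 differed between the resistant lines, by a log2 difference of -1.68 (MHCC97L-Src minus MHCC97L-Oxa, edgeR adjusted p = 0.0266), lower in 3 of 3 MHCC97L-Src libraries than in every MHCC97L-Oxa library. Against MHCC97L it was -2.74 (MHCC97L-Src) and -1.05 (MHCC97L-Oxa). The difference was tested directly on the 6 libraries of the resistant lines, so the spread of the MHCC97L libraries does not enter it. Over the alternatives tried it ran from -2.02 to -0.99, with adjusted p from 0.000239 to 0.207.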

How the results depend on the processing

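For the log2 fold changes of the tested genes, 277 values under alternatives kept their direction and side of the threshold, 41 passed it, 13 no longer passed it and 14 changed sign. In MHCC97L-Src against MHCC97L, where 1 of the 10 genes was called, DESeq2 called 4 (ZEB1, ZEB2, SNAI2 and TWIST1), no filter 3, all 9 libraries in one fit 5, limma-trend on log2(FPKM + 1) TWIST1 but not SNAI2 (adjusted p = 0.0559), limma-trend on log2(FPKM + 0.1) 2 and GC and length offsets 3 (CDH1, SNAI2 and TWIST1), and 0 to 6 were called with 1 library left out. Of all genes, 256 were called, against 2114 by DESeq2, 702 without the filter, 1956 with 9 libraries, 1270 with the offsets and 22 to 3419 with 1 library left out. In MHCC97L-Oxa, 0 became 1 (TWIST1) by DESeq2 and by both limma-trend fits, 2 (CDH1 and TWIST1) with 9 libraries or the offsets, and 0 to 4 with 1 library left out. There 115 genes became 893 by DESeq2, 495 with 9 libraries, 252 and 256 by limma-trend on log2(FPKM + 1) and log2(FPKM + 0.1), 1558 with the offsets and 2 to 2705 with 1 library left out. Between the resistant lines, 1 became 2 (VIM and SNAI2) by DESeq2, without the filter and with the offsets, 0 with 9 libraries and by both limma-trend fits, and 0 to 3 with 1 library left out. There 556 genes became 839 by DESeq2, 86 with 9 libraries, 1156 with the offsets and 167 to 1617 with 1 library left out. The causes of these moves were not tested.

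Signs turned for VIM (0.059 with the offsets) and SNAI1 (-0.14) in MHCC97L-Src, for SNAI1 in MHCC97L-Oxa (-0.21), and for TWIST1 between the resistant lines (0.012 by DESeq2 and 0.012 with its size factors). With 1 library left out they turned for CDH2 (-1.13 to 0.16) and SNAI1 (-0.029 to 0.33) in MHCC97L-Oxa and TWIST1 between the resistant lines (-0.074 to 0.029).

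The deviations of libraries with the same replicate number correlated at -0.631 to 0.211 in MHCC97L-Src against MHCC97L (2 of 3 pairs over 0.1), at -0.208 to 0.417 in MHCC97L-Oxa (1 of 3) and at -0.271 to 0.0286 between the resistant lines (0 of 3). No comparison had every pair over 0.1, so the numbers were not taken as pairs. With the replicate block, 3 of the genes (CDH1, ZEB2 and SNAI2) and 988 of all genes were called in MHCC97L-Src, 0 and 92 in MHCC97L-Oxa, and 1 and 406 between the resistant lines. The block with the offsets gave 0 of the genes in MHCC97L-Src, 599 of all genes in MHCC97L-Oxa, and log2 fold changes of 0.092 for VIM and -0.14 for SNAI1 in MHCC97L-Src and -0.21 for SNAI1 in MHCC97L-Oxa. For MHCC97L-Src against MHCC97L-Oxa it called VIM (adjusted p = 0.0321) and no longer SNAI2 (-1.42, adjusted p = 0.104). Depth limits CDH1, EPCAM and GRHL2.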

Other observations

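Beyond the EMT genes, KRT8 and KRT18 were higher in MHCC97L-Src than in MHCC97L-Oxa, by 0.87 and 0.91 on the log2 scale (edgeR adjusted p = 0.0136 and 0.00471). KRT8 lost its call without MHCC97L-Src replicate 1 or any 1 MHCC97L-Oxa library (adjusted p at most 0.106). Against MHCC97L, the log2 fold change of KRT8 was -0.07 in MHCC97L-Src and -0.94 in MHCC97L-Oxa. That of KRT18 was 0.58 and -0.33, and edgeR called none of these. With GC and length offsets both were lower in MHCC97L-Oxa (-1.11 and -0.58, edgeR adjusted p = 0.00554 and 0.0179), and neither was called in MHCC97L-Src. SERPINA1, the alpha-1 antitrypsin gene of hepatocytes, was at 1 count in every MHCC97L library and at 31, 14 and 14 counts in the MHCC97L-Oxa libraries, with 22, 9 and 10 in those of MHCC97L-Src (log2 difference between the resistant lines -0.42, edgeR adjusted p = 0.686). CD14, a receptor of myeloid cells, reached 16, 18 and 20 counts in the MHCC97L libraries, 97, 104 and 100 in those of MHCC97L-Src and 91, 79 and 87 in those of MHCC97L-Oxa, while PTPRC was at 0 counts throughout. CD68 was lower in MHCC97L-Src than in MHCC97L-Oxa (log2 difference -0.75, edgeR adjusted p = 0.0116), a call lost without MHCC97L-Src replicate 1 or any 1 MHCC97L-Oxa library (adjusted p at most 0.0763).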
